A study of Mus musculus with 36 samples.

Results

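Gene expression in the blood of mice exposed to a 25% mixed field x-ray/neutron was compared with that of mice exposed to x-rays, at the same total dose of 3 Gy. The arrays were chosen by their titles alone, and they were the 6 arrays at 25% and the 6 x-ray arrays, 12 of the 36 arrays of the series. All of these mice were male C57BL/6J, irradiated at 8 to 10 weeks of age and bled by cardiac puncture at day 7, with 1 array per mouse. Neutrons gave 0.75 Gy in the 25% field, photons of the neutron source together with added x-rays made up the total, and the other group received 3 Gy x-rays and no neutrons. The remaining groups, sham-irradiated controls, mixed fields with 5 and 15% neutrons, and 0.75 Gy of neutrons without x-rays (neutron alone), are cited only where their levels stand beside a result of this comparison. RNA came from whole blood lysed in PAXgene solution and was depleted of globin RNA, so that fewer cells of a type and less RNA per cell cannot be told apart.

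Neutrons set protons in motion, which deposit their energy densely along short tracks, whereas the electrons released by x-rays deposit it sparsely. For the same dose, dense deposition breaks DNA in ways that cells repair less well. In irradiated mice, B cells are among the blood cells lost fastest, T and NK cells are lost less completely, and red cells, platelets, and neutrophils depend on how quickly the bone marrow replaces their precursors.

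Each gene was given a level, the log2 intensity of its brightest probe minus the median of the array, and a difference is the mean level at 25% minus the mean level after x-rays. The array held 39429 probes, of which 21484 were bright enough and 17963 of these also varied enough between arrays to be kept, for 15085 genes. Probes well above background numbered between 16548 and 19307 on the x-ray arrays (median 18059) and between 15782 and 21058 on the 25% arrays (median 19849), and the difference of 1251 in the means was within the spread of the arrays (exact two-sided permutation test, p = 0.190, where 0.00216 is the smallest p that 6 against 6 allow). Without 25% replicate 5 the difference in probes well above background per array was 1969.5 (exact permutation test, p = 0.0108). The 75th percentile of the intensities ranged from 55.1 to 196 after x-rays and from 114 to 454 at 25%, with x-ray replicate 5 and 25% replicate 5 the dimmest of their groups. Of the x-ray arrays, 5 were scanned in 1 session and replicate 6 in another on a slide with arrays of other groups, and all 25% arrays were scanned in a further session that they shared with the neutron alone arrays. The 2 groups therefore shared neither a slide nor a session, and the exposure and the scan session cannot be told apart in any result given here.

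Of the 15085 genes, 394 (2.61%) differed between the 25% field and x-rays by limma with p below 0.001 before and below 0.05 after Benjamini-Hochberg adjustment, and these are the genes called higher or lower in what follows. Of them, 113 (0.749% of the genes tested) were higher at 25%, by a median of 1.55 on the log2 scale, and 281 (1.86%) were lower, with a median of -1.95. The largest adjusted p among them was 0.0382. All 6 arrays of one group lay above all 6 of the other for 178 genes higher at 25% (1.18%) and 207 lower (1.37%). The median difference of all genes was 0.19, and since scaling moved it to -0.10 with the 75th percentile of each array and to -0.00 with quantile normalization, medians of gene groups are set against it. The split of the calls moved as well, to 56 higher and 247 lower with the 75th percentile, 67 and 306 with quantile normalization, and 56 and 266 in the deposited normalized table. With normexp background correction 0 of 10622 genes were called by limma, with 389 at p below 0.05. The calls also depended on single arrays. Without x-ray replicate 2 or 3, or 25% replicate 1, 2, 4, or 6, limma called 0 genes, with 181 to 252 still at an unadjusted p below 0.001, 3021 to 4108 at p below 0.05, and lowest adjusted p between 0.0549 and 0.0697. Without x-ray replicate 5 it called 66, without x-ray replicate 6 it called 193, without x-ray replicate 4 it called 260, without x-ray replicate 1 it called 407, without 25% replicate 3 it called 612, and without 25% replicate 5 it called 753. Without both replicates numbered 5, 593 genes were called, 66 higher and 527 lower.

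Many of the called genes were near the background of the arrays. Of the 113 called higher, 66 were well above background on all 12 arrays, and 17 were not well above background on any x-ray array. Of the 281 called lower, 97 were well above background on all 12 arrays, 63 were not on any 25% array, and 121 were on some of the 6. For called genes not well above background on any array of a group, only a lower bound of the fold is given, the mean of the brighter group set against, on each array of the dimmer group, the lowest signal among probes well above background or the signal of the probe itself where that was higher.

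In lists of genes for blood cell types and cellular processes, 41 in all, 919 genes were tested, and 2 were called higher and 4 lower (0.653%, against 2.61% of all genes). These 6 were Zfp36, Cox5b, Cr2, Junb, Hist1h2bb, and Hist1h3f. No member was called in 37 of the lists, in which counts at an unadjusted p below 0.05 are given instead, to be read against 15.3% of all genes higher and 14% lower at that p. Called members are to be read against 0.749% of all genes called higher and 1.86% called lower. The methods' random variance test called 395 genes in all and none of the genes named here beyond those that limma called.

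The B-cell gene Cr2 was called lower at 25%. Cr2 encodes complement receptor 2, the co-receptor that lowers the threshold of B-cell activation, and its probe lies at chr1:196965532-196965591 (mm9). Its level after x-rays ranged from 3.29 to 5.51 (median 4.02) and at 25% from 1.72 to 3.00 (median 2.26), so that no 25% array reached the lowest x-ray array. The difference was -1.92 ± 0.36 (SE, 6 arrays against 6), a 3.78-fold lower level (limma, adjusted p = 0.028). Cr2 was at 6.69 ± 0.43 (SD, n = 6) in the controls, 2.61 at 5%, 2.96 at 15%, and 5.28 in the neutron alone mice. The other probe for Cr2 differed by -1.32 (adjusted p = 0.0822 over all probes). Cr2 kept its call in 6 of the 12 fits that each left out an array, and in the deposited table, where it differed by -1.32, it was not called.

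Of 24 B-cell genes tested, Cr2 was the 1 called, none was higher at p below 0.05, and 2 were lower. The median of the list was 0.38, above the 0.19 of all genes, and the averaged level of the list ranged from 1.59 to 4.33 after x-rays and from 2.35 to 3.53 at 25%, against 6.48 to 7.23 in the controls. Fcer2a, a low-affinity receptor for IgE on mature B cells, differed by -0.76 (-1.51 to -0.00, adjusted p = 0.17) and was well above background on 4 of the 25% arrays and 3 of the x-ray arrays. Cd79a, a signalling chain of the B-cell receptor, and Ms4a1, which encodes CD20, differed by 0.68 (-0.53 to 1.89) and 0.58 (-0.93 to 2.08), with the 2 groups overlapping in both. Fcer2a, Cd79a, and Ms4a1 were chosen after their values were seen. The levels of B-cell genes thus covered a wide range within each group, and Cr2 alone had no overlap.

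None of the 29 T-cell genes was called, and 10 were higher and 0 lower at p below 0.05. Their median was 0.43, and the averaged level of the list lay between 3.93 and 4.76 after x-rays and between 4.52 and 5.28 at 25%. Cd28, the co-stimulatory receptor of T cells, had levels of 3.76 to 4.66 after x-rays (median 4.44) and 4.66 to 5.60 at 25% (median 5.08), which did not overlap, but its difference of 0.76 (0.23 to 1.29) had an adjusted p of 0.0772. Lef1, a transcription factor of naive T cells, differed by 0.95 (0.27 to 1.63, adjusted p = 0.08). Among 22 NK and cytotoxic genes, 9 were higher at p below 0.05, the median was 0.48, and Klrg1 and Tbx21, an inhibitory receptor and a transcription factor of effector cells, differed by 1.34 (adjusted p = 0.0622) and 0.93 (adjusted p = 0.0719). Of 10 MHC class II genes 1 was higher at p below 0.05, and H2-Ab1, a chain of the class II molecule, differed by 1.21 (0.16 to 2.26, adjusted p = 0.126). Of 6 plasma cell genes 3 were higher at that p, among them Xbp1 and Prdm1, transcription factors of antibody secretion (0.70 and 0.91, adjusted p = 0.0959 and 0.125). The medians of the T-cell and the NK lists lay above that of all genes under each of the 6 other scalings and centrings tried.

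No red-cell gene was called. The 9 enzymes of heme synthesis had a median of -0.34, with 1 higher and 0 lower at p below 0.05, and the 19 membrane and skeleton genes had a median of -0.17, with 1 higher and 3 lower. Dmtn, an actin-bundling protein of the red-cell skeleton, had levels of 5.52 to 6.54 after x-rays (median 6.29) and 4.14 to 6.36 at 25% (median 4.9), a difference of -1.14 (-1.94 to -0.34, adjusted p = 0.0778), while its other probe differed by 0.31. In the controls Dmtn was at 4.02 ± 0.25, below the mean of either irradiated group. Fech, which inserts iron into heme, differed by -0.63 (adjusted p = 0.212), and Alas1, the first enzyme of the pathway outside red cells, by 0.96 (adjusted p = 0.107), which turned to -0.84 with the 75th percentile, and its other probe differed by -0.63. The 10 erythroid transcription factors and the 17 iron and maturation genes had medians of -0.16 and -0.16, with Lmo2 at -0.67 (adjusted p = 0.182), Myb at 0.70 (adjusted p = 0.182), Hemgn, whose probe holds 18 GT units, at 0.75 (adjusted p = 0.0892), and Slc11a2, an iron transporter, at -0.79 (adjusted p = 0.118). Globin genes had a median of -0.21, which turned to 0.28 with quantile normalization and 0.32 in the deposited table, and their RNA had been depleted. Hba-a1 and Hbb-y, an adult alpha and an embryonic beta-like chain, differed by -0.81 (adjusted p = 0.132) and 0.55 (adjusted p = 0.174).

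Myeloid and platelet genes were not called either. The 7 primary granule genes of neutrophil precursors had a median of 0.38 and the 13 secondary granule genes one of -0.25, with 2 and 0 higher at p below 0.05 and none lower. Gfi1, a repressor that directs granulocyte development, had levels of 1.89 to 3.30 after x-rays (median 2.55) and 2.96 to 4.36 at 25% (median 3.74), a difference of 1.10 (0.42 to 1.78, adjusted p = 0.0568). Cst7, a cystatin, did not overlap between the groups, at 3.45 to 4.45 and 4.51 to 5.14, and differed by 0.75 (adjusted p = 0.0695). The 20 genes of mature neutrophils had a median of 0.30, above the 0.19 of all genes. The 2 members with the smallest p went against that median. The receptor for granulocyte colony-stimulating factor, Csf3r, differed by -0.71 (-1.22 to -0.19, adjusted p = 0.0872) and the protease inhibitor Stfa3 by -1.99 (-3.41 to -0.57, adjusted p = 0.0801). Among 22 monocyte genes the largest was Ms4a4c, at 8.49 to 9.15 after x-rays (median 8.85) and 8.88 to 10.90 at 25% (median 10.11), with an adjusted p of 0.0457 that an unadjusted p above 0.001 kept from being called, and its probe holds 14 GT units. Among 26 platelet genes 7 were higher at p below 0.05, and P2ry1, a receptor for ADP, lay at 2.98 to 3.62 after x-rays and 3.65 to 4.44 at 25% without overlap, a difference of 0.77 (adjusted p = 0.0627). The 12 eosinophil and basophil genes, 11 dendritic cell genes, and 11 progenitor genes had medians of 0.26, 0.32, and 0.31. From these lists, in the same order, Ear1 differed by 1.08 (adjusted p = 0.0724), Zbtb46 by -2.21 (adjusted p = 0.0727), and Cd34 by 0.99 (adjusted p = 0.099). Zbtb46 thus lay against the median of the dendritic cell list.

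**Figure D1:**
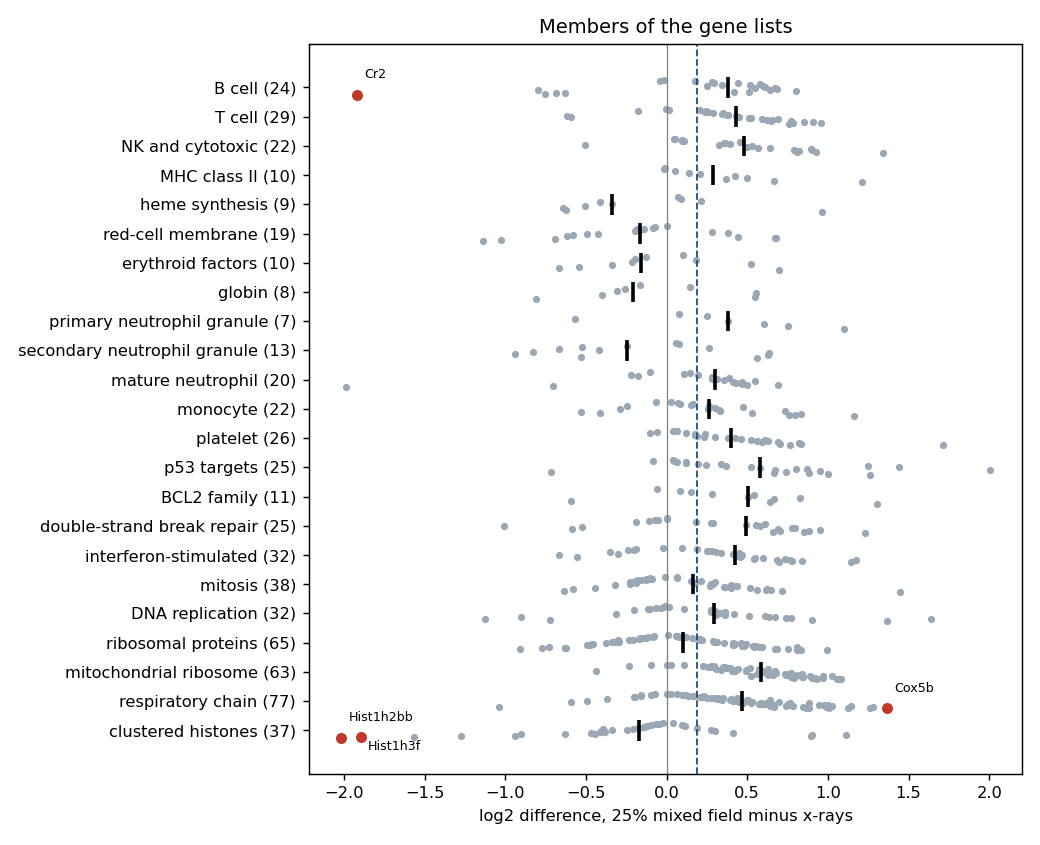
Log2 difference, 25% mixed field minus x-rays, of every tested member of 23 gene lists, with the number of members in parentheses, each point a gene, the black bar the median of the list, and the dashed line the median of all genes. Red points are the called genes Cr2 (-1.92), Cox5b (1.36), Hist1h2bb (-2.02), and Hist1h3f (-1.90). The medians of the T-cell, NK, p53, mitochondrial ribosome, and respiratory chain lists lie to the right of the dashed line. Those of other lists do so too, among them the B-cell list (0.38).

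Among the genes that respond to DNA damage, none was called. The 25 p53 targets tested had a median of 0.58, 0.39 above that of all genes, and 7 were higher and 1 lower at p below 0.05. Tnfrsf10b, a death receptor, lay at -1.42 to 0.37 after x-rays (median -0.44) and 0.03 to 1.08 at 25% (median 1.01), a difference of 1.26 (0.53 to 2.00, adjusted p = 0.0487), and was well above background on 1 x-ray array and 5 25% arrays. Gtse1, which restrains p53 in the cell cycle, was not well above background on any x-ray array and was on 5 of the 25% arrays, and it was not called (adjusted p = 0.0619). The 11 genes of the BCL2 family had a median of 0.50, with the survival gene Bcl2l2 at 1.31 (adjusted p = 0.0496) and the death gene Bak1 at 0.64 (adjusted p = 0.109). Of 25 double-strand break repair genes 5 were higher at p below 0.05, the leading members being the end-joining factors Xrcc5 (1.23, adjusted p = 0.0868) and Xrcc4 (0.85, adjusted p = 0.0995). Interferon-stimulated genes had a median of 0.42, with 10 of 32 higher at p below 0.05. Oasl2, an oligoadenylate synthetase-like protein, lay at 5.86 to 6.60 after x-rays and 6.61 to 7.22 at 25%, a difference of 0.70 (0.19 to 1.21, adjusted p = 0.0851), and Ifi27l2a differed by 1.14 (adjusted p = 0.0661). In the inflammatory and Toll-like receptor lists Ccl3 differed by 0.77 (adjusted p = 0.0724), Nfkbiz by -0.99 (adjusted p = 0.174), Tlr12 by 0.80 (adjusted p = 0.0578, no overlap), and Tlr13 by 0.78 (adjusted p = 0.13).

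Among 18 immediate early genes, which also respond to the handling of blood, Zfp36 was called higher and Junb lower. Zfp36 encodes tristetraprolin, which brings about the decay of cytokine mRNAs. Its level after x-rays was between -0.42 and 0.94 (median -0.06) and at 25% between 1.5 and 2.67 (median 2.12), with no overlap, and the fitted difference was 1.99 ± 0.31 (SE, limma, adjusted p = 0.022). On the x-ray arrays it was well above background in 2 of 6, so that the size of the difference rests in part on signals near background. In the controls Zfp36 was at 2.20 ± 0.48 (SD, n = 6), at 5% and 15% it was at 1.84 and 1.96, and in the neutron alone mice at 2.53, so that the x-ray group was the low one. Zfp36 kept its call in 6 and Junb in 3 of the 12 fits without 1 array. Junb, a subunit of the transcription factor AP-1, was between 0.76 and 2.82 after x-rays (median 1.79) and between -0.39 and 1.07 at 25% (median 0.12), where 2 of 6 arrays were well above background. Its difference was -1.56 ± 0.35 (adjusted p = 0.0337), and the 2 groups overlapped. The other members of the list gave no common direction, since 3 were higher and 2 lower at p below 0.05 with these 2 included. The 60-base probes of Zfp36 and Junb lie at opposite ends of the range of base composition, with 13 and 33 G and C bases. They are shown because the differences of all genes followed the base composition of their probes, as described further on, with 30 bases from mm9 chr7:29161940-29161999 and chr8:87501881-87501940, both on the minus strand, and G and C in capitals.
Zfp36: ttatGaCGaCtttatttattGtattaaGat
Junb: aGGGCtttGCGGaCGGttttGtCaaaGCCC

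No heat shock, stress response, or antioxidant gene was called. Of 9 heat shock genes 3 were higher at p below 0.05, with Hspb1, a small chaperone, at 1.49 (0.45 to 2.52, adjusted p = 0.0769) and Hspa8, the constitutive HSC70, at 0.91 (adjusted p = 0.0819). Of 16 genes of the integrated stress response 5 were higher at that p, and Chac1 and Xbp1 differed by 0.88 (adjusted p = 0.101) and 0.70. Of 28 antioxidant genes 7 were higher, and Prdx6, a peroxiredoxin, lay at 8.74 to 9.28 after x-rays and 9.31 to 10.47 at 25% without overlap, a difference of 0.98 (adjusted p = 0.0412), which was -0.61 in the deposited table, and its 3 other probes differed by -0.70, 0.23, and 0.22. Gstt1, a glutathione transferase, differed by 1.00 (adjusted p = 0.05) and was at 4.29 ± 1.48 in the controls, far below either irradiated group.

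Cox5b, a subunit of cytochrome c oxidase, was called higher at 25%. Its level was between 7.14 and 8.62 after x-rays (median 8.16) and between 8.94 and 9.81 at 25% (median 9.52). All 25% arrays thus lay above all x-ray arrays, and the difference was 1.36 ± 0.29 (SE), 2.57-fold (limma, adjusted p = 0.0307). In the controls Cox5b was at 7.41 ± 0.18 (SD, n = 6), at 5% and 15% it was at 9.14 and 9.50, and in the neutron alone mice at 7.87. It was the 1 called of 77 genes for subunits and assembly factors of the respiratory chain, a list with 1 pseudogene, of which 21 were higher and 1 lower at p below 0.05 and 9 were higher without overlap. Over all genes tested, 1.18% were higher without overlap. The median of the list was 0.47, and it stayed above the median of all genes, by 0.23 to 0.35, under each scaling and centring tried, and by 0.12 without both replicates numbered 5. Cox5b kept its call in 5 of the 12 fits without 1 array. Ndufc1 and Cox6b1, subunits of complex I and complex IV, differed by 1.26 (0.60 to 1.92, adjusted p = 0.0394) and 1.01 (0.44 to 1.57, adjusted p = 0.0452), both without overlap, and were chosen after their values were seen.

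The 63 genes of the mitochondrial ribosome had a median of 0.59, with 60 of them above 0 and 20 higher and 0 lower at p below 0.05, but none was called. Mrps24, a protein of its small subunit, lay at 4.01 to 5.36 after x-rays (median 5.10) and 5.40 to 6.46 at 25% (median 6.08), without overlap, and differed by 1.06 (0.44 to 1.68, adjusted p = 0.0497). The list stayed above the median of all genes by 0.32 to 0.43 under each scaling and centring tried. Cytosolic ribosomal proteins had a median of 0.10 over 65 genes, with 7 higher and 5 lower at p below 0.05, and the median turned to -0.27 with quantile normalization and -0.33 in the deposited table. Of these Rpl21 differed by 0.84 (adjusted p = 0.0781) through its brightest probe, and its 5 other probes differed by between -0.35 and 1.54, so that the probes disagreed on its direction. The medians of 35 ribosome biogenesis genes, 14 aminoacyl-tRNA synthetases, and 16 tRNA methyltransferases were 0.36, 0.46, and 0.53, with 5, 2, and 4 genes higher at p below 0.05 and none lower. Ddx21, a nucleolar helicase, and Npm1, nucleophosmin, differed by 1.42 (adjusted p = 0.049) and 1.24 (adjusted p = 0.0661), Eprs by 1.72 (adjusted p = 0.0511), and Trmt5 by 1.56 (adjusted p = 0.0511). Of 37 initiation factors 1 was higher and 1 lower at that p, Eif2s1, which was not well above background on any x-ray array, and Eif1 at -0.75 (adjusted p = 0.145). Of 26 proteasome genes 5 were higher, led by Psmc1 at 1.11 (adjusted p = 0.0798), and of 26 E2 ubiquitin enzymes 2 were lower, Ube2m at -0.84 (adjusted p = 0.115) and Ube2o at -0.78 (adjusted p = 0.125).

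Dividing cells were followed through 38 mitosis genes and 32 DNA replication genes, of which none was called. The medians were 0.16 and 0.29, and at p below 0.05 there were 1 and 3 genes higher and 0 and 2 lower. Cdk1, the kinase that starts mitosis, differed by 1.44 (0.50 to 2.39, adjusted p = 0.0659), and the spindle factor Tpx2 by -0.63 (adjusted p = 0.198). Mcm2, a subunit of the replicative helicase, differed by 0.90 (0.23 to 1.57, adjusted p = 0.0881), and Gmnn, which limits replication to once per cycle, by 1.37 (adjusted p = 0.0768). Among 37 clustered histone genes, transcribed in S phase, Hist1h2bb and Hist1h3f were called lower. Hist1h3f lay at 3.39 to 5.26 after x-rays (median 4.56) and 1.56 to 3.58 at 25% (median 2.49), which overlapped, and the difference was -1.90 ± 0.42 (SE, adjusted p = 0.0337). Hist1h2bb differed by -2.02 ± 0.43 (adjusted p = 0.0313), but was well above background on 1 of the 25% arrays and all x-ray arrays. The median of the histone list was -0.17, and 3 members were higher and 5 lower at p below 0.05.

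Genes of interest to the study were followed through a list of those in its qRT-PCR assays and some others from its text, which does not hold all genes it discusses. Of the 18 members 15 passed the filters, and none of these was called or had a p below 0.05 in this comparison. Outside the list, the ribosomal protein genes Rpl19 and Rpl6, chosen after their values were seen, differed by -0.63 (-1.25 to -0.01, adjusted p = 0.166) and 0.69 (0.09 to 1.28, adjusted p = 0.125). The differences of the 15 ranged from -0.48 for Rps19 to 0.63 for Eif2b4, with a median of -0.21, and each of their 95% intervals included 0. Ribosomal proteins Rps25 and Rpl26 differed by -0.47 and -0.34, and the initiation factors and their kinase Eif2ak4, Eif3k, and Eif2s3x by 0.43, -0.23, and -0.21. The probe of Rps25 was dim, at means of 1.29 at 25% and 1.76 after x-rays. The ribosomal protein list averaged 10.88 and 10.80 in these groups. Under the alternatives the difference of Rps25 ranged from -0.83 to 0.91. For the mitotic genes Fzr1, Ube2c, and Ccna2 the differences were -0.32, -0.21, and -0.13, and on all 3 probes 25% replicate 5 was the highest array of its group. Crip2, Chst3, and Add3 differed by 0.28 (-0.29 to 0.84), -0.22 (-0.92 to 0.48), and -0.02 (-0.76 to 0.72). In the controls Crip2 was at 4.99 ± 0.38 and Chst3 at 6.78 ± 0.41, against 7.84 and 1.27 as the medians of the x-ray arrays and 8.03 and 1.22 at 25%. Myc differed by 0.13 (-0.70 to 0.97).

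Of the 12 genes with the largest rise among those called and well above background on all 12 arrays, 10 had a gene symbol. Gm9924, a predicted gene on chromosome 5, had the largest, from 5.93 to 9.21 after x-rays (median 7.16) to between 8.04 and 12.36 at 25% (median 11.42), a difference of 3.55 ± 0.70 (SE, adjusted p = 0.028). It was at 6.58 ± 1.48 (SD, n = 6) in the controls and at 12.79 in the neutron alone mice. Arhgap26, a GTPase-activating protein, had levels of 0.99 to 2.71 after x-rays (median 1.99) and 2.49 to 6.52 at 25% (median 4.81), a difference of 2.76 ± 0.56 (adjusted p = 0.0298), whereas its other probe differed by 0.81 (adjusted p = 0.213). Each of these 10 genes overlapped between the groups, and the 25% array that reached the x-ray arrays was replicate 3.

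**Figure D2:**
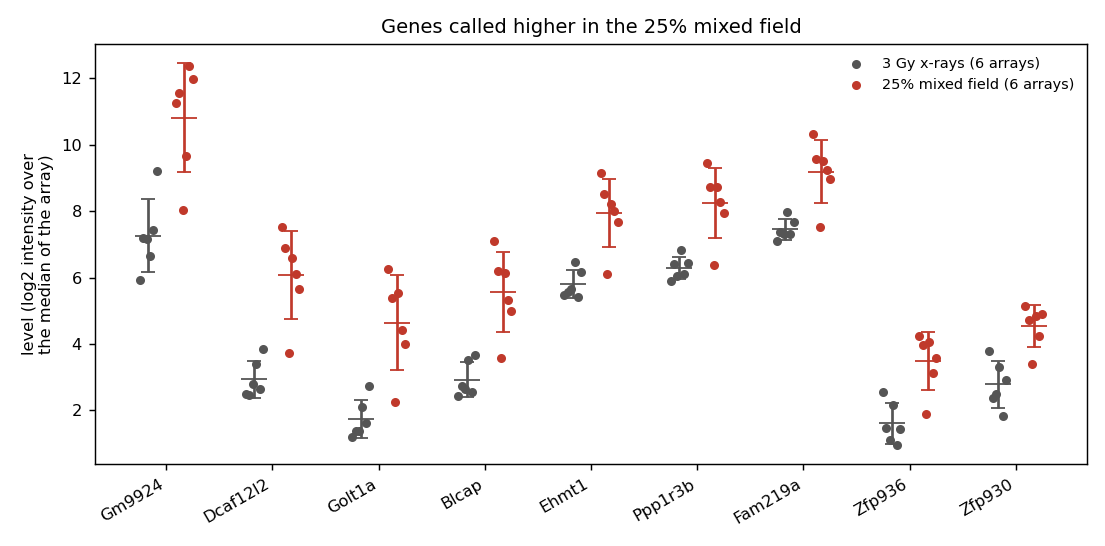
Level of 9 genes called higher at 25%, as log2 intensity over the median of the array, on the 6 x-ray arrays (grey) and the 6 arrays of the 25% mixed field (red), with the mean and SD of each group. The lowest red point of each gene lies below the highest grey point or close to it, and the means differ by between 1.73 and 3.55.

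For 6 of the 10, the probe holds a run of at least 5 GT units, and the part of the probe with the run is shown because all 6 have it, whereas shared functions of these genes were not tested. The probes are given as 30 of their 60 bases, in the orientation of the probe, with the GT run in capitals and the mm9 position of the whole probe. Dcaf12l2 (chrX:41719612-41719671, minus strand) encodes a WD-repeat protein related to substrate receptors of CUL4 ubiquitin ligases, Golt1a (chr1:135219463-135219522, plus) a protein of Golgi transport, and Blcap (chr2:157382641-157382700, minus) a small protein first found lost in bladder cancer. Ehmt1 (chr2:24646395-24646454, minus) is a histone methyltransferase, Ppp1r3b (chr8:36451115-36451174, plus) directs protein phosphatase 1 to glycogen, and Fam219a (chr4:41466193-41466252, minus) has no settled role.
Dcaf12l2: GTGTGTGTGTgagtgatttattttcaaagt
Golt1a: taagGTGTGTGTGTGTatatgatctatgta
Blcap: gtgttGTGTGTGTGTttacataccaataca
Ehmt1: GTGTGTGTGTgagtgtgtgtgactcttcta
Ppp1r3b: GTGTGTGTGTGTggtggaagagaatgattt
Fam219a: gcGTGTGTGTGTGTGTGTGTtgtaccccag

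Dcaf12l2 lay at 2.46 to 3.83 after x-rays (median 2.73) and 3.72 to 7.53 at 25% (median 6.35), a difference of 3.14 ± 0.52 (SE, adjusted p = 0.022). Golt1a lay at 1.21 to 2.73 (median 1.51) and 2.25 to 6.25 (median 4.9), a difference of 2.90 ± 0.56 (adjusted p = 0.028). Blcap lay at 2.43 to 3.67 (median 2.68) and 3.59 to 7.10 (median 5.74), a difference of 2.64 ± 0.49 (adjusted p = 0.028). In all 3 genes 5 of the 25% arrays lay above every x-ray array and replicate 3 lay among them. Ehmt1, Ppp1r3b, and Fam219a differed by 2.15 ± 0.42, 1.96 ± 0.42, and 1.73 ± 0.39, with adjusted p of 0.028, 0.0313, and 0.0337. The same genes were also at higher levels in the other neutron groups than after x-rays, as Dcaf12l2 was at 6.10, 6.73, and 6.77 at 5%, at 15%, and in the neutron alone mice, against 2.81 ± 0.21 in the controls. On the 1 slide that 4 groups shared, Dcaf12l2 was at 3.21 in the control, 3.83 after x-rays, 3.45 at 5%, and 3.20 at 15%.

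Probes with the letters GTGTGTGT were 0.591% of all 39429 probes and 1.13% of the probes of the genes tested, and they were 29 of the 113 genes called higher (25.7%) and 3 of the 281 called lower. Of 171 such genes, 153 had a difference above 0 and the median was 0.80. By the number of consecutive GT units, over all 21484 probes past the background filter, the median difference was 0.16 for 0 or 1 unit, 0.26 for 2, 0.29 for 3, 0.49 for 4, 0.97 for 5 to 6, 0.86 for 7 to 9, and 0.76 for 10 or more. Among the other motifs searched on the strand of the probe, ACACACAC, the reverse complement, was called higher in 2 of 83 genes (median 0.34), GAGAGAGA in 1 of 52 (median 0.36), and TCTCTCTC in 1 of 62 (median -0.38). The motifs and the list of probes were chosen after the values had been seen. Over all genes tested, 0.749% were called higher. Without the GTGTGTGT probes 359 genes were called, 83 higher and 276 lower.

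Genes with a repeat probe could be checked where another probe without the repeat had passed the background filter, which was so for 6 of the 29 genes. Their 7 other probes differed by a median of 0.19, the value of all genes, with a range from -0.51 to 1.93. Nhlh1 and Scn8a, neuronal genes for a transcription factor and a sodium channel, differed by -0.10 and -0.09 on these probes, against 3.16 and 1.55 on the repeat probes, but these other probes were dim, with mean levels of -1.15 and -1.05 for Nhlh1 and -0.13 and -0.04 for Scn8a at 25% and after x-rays. The 29 genes had been chosen by the call of their repeat probe, so that their differences on the repeat probes are a description. For Ehmt1 the other probe differed by 0.57 ± 0.37 (SE, adjusted p = 0.303) and for Fam219a by 0.78 ± 0.70 (adjusted p = 0.458). The other probes of Fam219a (0.55 at 25% and -0.23 after x-rays) and Fam160b2 (0.99 and 0.80, 0.79 and 1.30) were at low levels too. Those of Ehmt1 (2.73 and 2.16) and Dcaf12l2 (5.10 and 3.17) were brighter. For Dcaf12l2 the other probe was called higher with a difference of 1.93 ± 0.34 (adjusted p = 0.0302). That probe (chrX:41719459-41719518, minus) itself begins with a run of GA units, in capitals, while the other probe of Ehmt1 (chr2:24646765-24646824, minus) holds no repeat.
Dcaf12l2 second probe: GAGAGAGAGAGAGAGAGAGAGAGAtttcta
Ehmt1 second probe: ccacacgctatgatgatgatgaataaactc

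**Figure D3:**
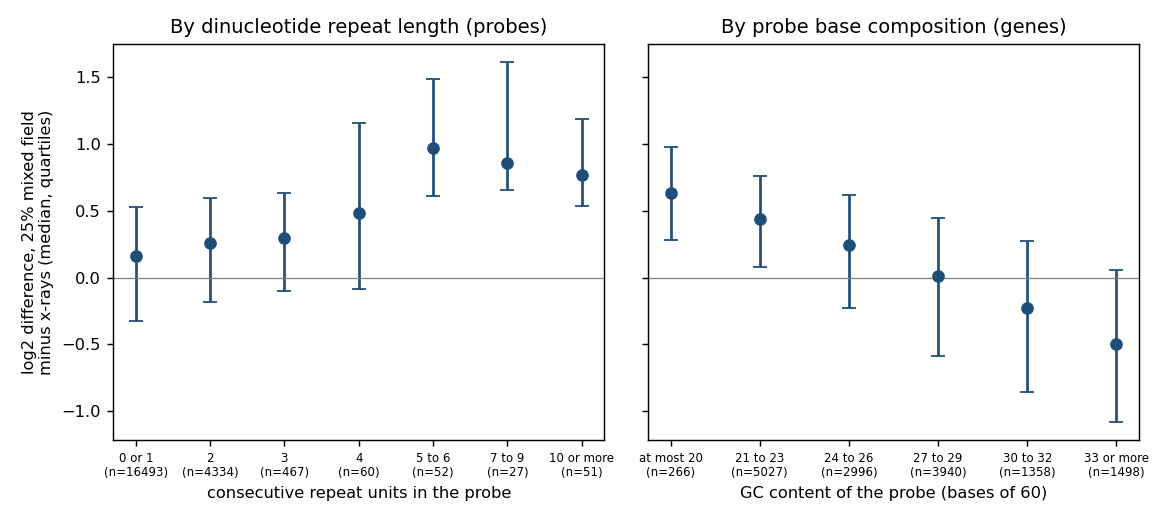
Median log2 difference, 25% mixed field minus x-rays, with quartiles as bars, by the number of consecutive repeat units in a probe (left, all probes past the background filter) and by the number of G and C bases in the 60-base probe of each gene (right). The median is 0.16 for probes with 0 or 1 unit and 0.97 for 5 to 6 units, and falls from 0.63 to -0.50 from the lowest to the highest GC content.

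The GTGTGTGT probes were followed by their median level on each array. Averaged over 6 arrays, their median level was 4.98 ± 0.16 (SD) after x-rays and 5.97 ± 0.58 at 25%, where replicate 3 was lowest at 5.13 and replicate 1 highest at 6.79. It was 5.12 ± 0.14 in the controls, 6.37 ± 0.97 at 5%, 7.12 ± 1.13 at 15%, and 6.26 ± 0.36 in the neutron alone mice. On the 1 slide that held arrays of the controls, x-rays, 5%, and 15%, the arrays at 5% and 15% were at 5.00 and 4.88, within the range of the control and x-ray arrays, while the other arrays of these groups, scanned in another session, were above it. No 25% array was on that slide. The part of the slide and session in the level of these probes was not tested.

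**Figure D4:**
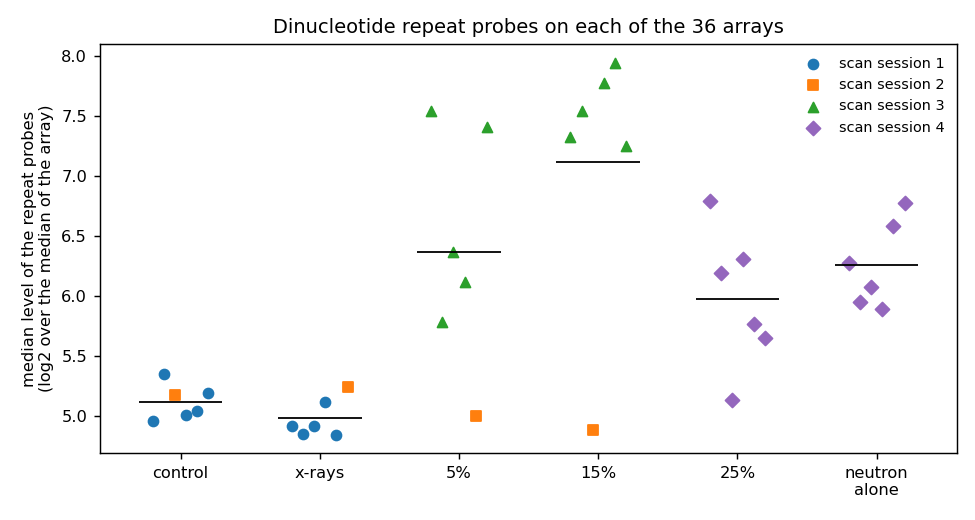
Median level of the GT repeat probes on each of the 36 arrays, as log2 intensity over the median of the array, by group, with marker shape and colour for the scan session and a line for the mean of the group. The 12 control and x-ray arrays lie between 4.84 and 5.35, the 25% arrays between 5.13 and 6.79, and the session 2 arrays at 5% and 15% lie at 5.00 and 4.88.

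Zfp936 and Zfp930, members of the large family of zinc finger repressors, were also among the 12. Zfp936 lay at 0.97 to 2.55 after x-rays (median 1.45) and 1.90 to 4.25 at 25% (median 3.77), a difference of 1.86 ± 0.41 (SE, adjusted p = 0.0324), and was at 2.89 ± 0.30 in the controls. Zfp930 lay at 1.84 to 3.79 (median 2.70) and 3.38 to 5.15 (median 4.77), a difference of 1.75 ± 0.37 (adjusted p = 0.0312), and was at 4.03 ± 0.30 in the controls, whereas its other probe differed by 0.42 (adjusted p = 0.315). The longest stretch that both probes share, TGGAGAGAAACC, lies in the coding sequence of the conserved linker between zinc fingers and is shown in capitals for Zfp936 (chr7:50445732-50445791, plus) and Zfp930 (chr8:71752264-71752323, plus).
Zfp936: catacTGGAGAGAAACCttacaaatgtgat
Zfp930: TGGAGAGAAACCctatgaatgtaatgaatg

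Probes with TGGAGAGAAACC were 0.0507% of all probes, and 5 of the 10 such genes tested were called higher and 0 lower, with a median of 1.78, Zfp936 and Zfp930, from which the stretch was taken, included. Of all 217 genes tested with the symbol Zfp and a number, a list chosen after the values were seen, 9 were called higher, Zfp36 among them, and 2 lower, with a median of 0.32. Over all genes tested, 0.749% were called higher and 1.86% lower. Zfp11 fell by 2.66 on the log2 scale without overlap, at 2.61 to 5.60 after x-rays and -0.14 to 2.25 at 25% (adjusted p = 0.0307). Since near-identical copies of zinc finger genes may bind to the same probe, the levels belong to the probe and are uncertain for the single gene.

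The differences of all genes were ordered by the base composition of their probes. The median difference was 0.63 for probes with at most 20 G and C bases of 60, 0.44 for 21 to 23, 0.24 for 24 to 26, 0.01 for 27 to 29, -0.23 for 30 to 32, and -0.50 for 33 or more. Of the genes in the last bin, 76 were called lower and 2 higher, and of those with 21 to 23 G and C bases, 24 were lower and 63 higher. Genes called higher had a median of 22 G and C bases and genes called lower one of 27, against 26 over all genes. When each array was centred within bins of GC content, 314 genes were called, 80 higher and 234 lower, and 279 of the 394 calls were kept. In that fit Zfp36 and Junb differed by 1.43 and -1.20, Cr2 by -1.91, and Cox5b by 1.00, and all 4 were called, while Ppp1r3b and Madcam1 were not. Probes with 33 or more G and C bases lay 0.37 ± 0.23 (SD, n = 6) from their average over the groups after x-rays and -0.13 ± 0.34 from it at 25%.

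Among the genes called lower at 25%, 7 of the 12 with the largest fall had a gene symbol other than a clone or locus number. Taar4, a trace amine receptor of the olfactory epithelium, lay at 5.34 to 9.13 after x-rays (median 6.31) and 1.60 to 5.99 at 25% (median 3.35), a difference of -3.19 ± 0.73 (SE, adjusted p = 0.0341). Nos1ap, an adaptor of neuronal nitric oxide synthase, lay at 4.29 to 8.07 (median 5.43) and 0.70 to 4.56 (median 2.46), a difference of -3.18 ± 0.69 (adjusted p = 0.0317). Csrnp3, a nuclear protein known mainly from brain, fell without overlap from 5.20 to 7.02 (median 5.51) to between 1.82 and 4.52 (median 2.65), a difference of -2.78 ± 0.51 (adjusted p = 0.028). The long non-coding RNA Gm16863 also fell without overlap, by 2.40 on the log2 scale (adjusted p = 0.0247). Olfr524, an odorant receptor, Madcam1, the adhesion molecule for lymphocytes in gut vessels, and Krtap10-4, a hair keratin-associated protein, differed by -2.79, -2.79, and -2.39, with adjusted p of 0.028, 0.0373, and 0.0283 and some overlap. The 25% array that reached the x-ray arrays was replicate 5 in Taar4, Nos1ap, Olfr524, Madcam1, and Krtap10-4. Control means lay below the lowest x-ray array and above the 25% medians, with Taar4 at 5.24 ± 1.06, Nos1ap at 4.14 ± 1.14, Csrnp3 at 4.68 ± 0.18, and Olfr524 at 3.69 ± 0.28. Madcam1 was called in 2 of the 12 fits without 1 array, and its other probe differed by -0.66.

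**Figure D5:**
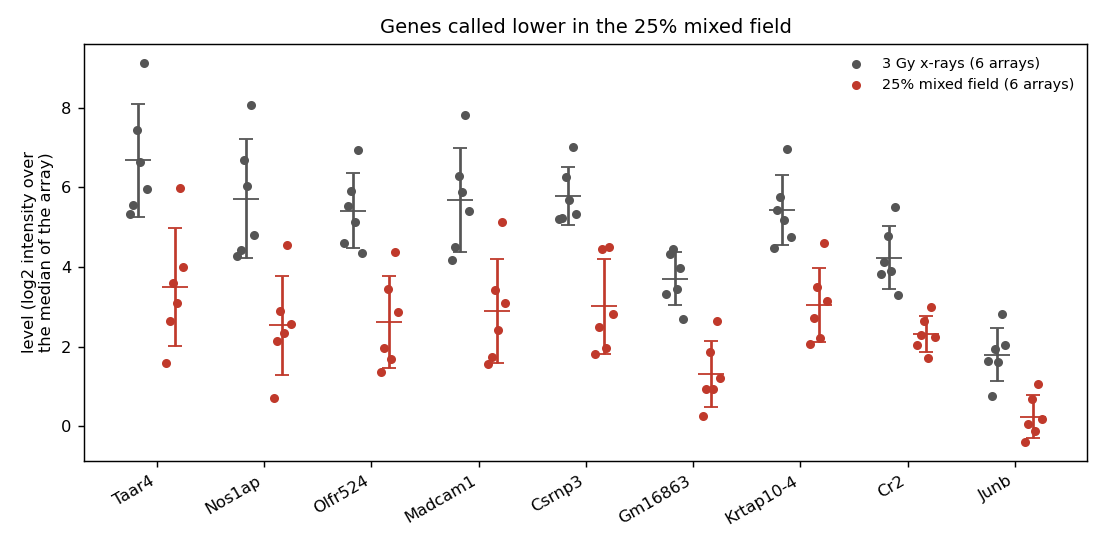
Level of 9 genes called lower at 25%, as log2 intensity over the median of the array, on the 6 x-ray arrays (grey) and the 6 arrays of the 25% mixed field (red), with the mean and SD of each group. Csrnp3, Gm16863, and Cr2 do not overlap between the groups, and the spread within each group of Taar4, Nos1ap, and Madcam1 is over 3 on the log2 scale.

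Odorant receptor and keratin genes made up part of the genes called lower. Of 1094 odorant receptor genes on the array 118 passed the filters, and of these 15 were called lower and 0 higher, with 55 lower and 0 higher at p below 0.05 and a median of -1.05. The averaged level of these 118 was between 0.41 and 2.38 on the x-ray arrays and between -0.81 and 1.41 on the 25% arrays, against -0.32 to 0.33 in the controls and 0.81 to 1.34 in the neutron alone mice. Olfr187 and Olfr149 were not well above background on any 25% array and on 5 of 6 x-ray arrays they were, so that they were at least 4.14-fold and 3.46-fold lower (fitted adjusted p = 0.022 each). Of 35 keratin and keratin-associated genes 2 were called lower, Krt2 and Krtap10-4, and the median was -0.87. Both counts of called genes stand against 1.86% of all genes called lower. Krt2 lay at 3.02 to 4.55 after x-rays and -0.25 to 2.50 at 25%, a difference of -2.47 (adjusted p = 0.028). Both lists were chosen after the values were seen.

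Genes of connective tissue stood on the other side. In a list of 25 extracellular matrix and collagen-processing genes, also chosen after the values were seen, 15 were tested, 6 were called higher, and 1 was called lower, with a median of 1.25, and it lay above that of all genes by 1.03 to 1.18 under the scalings and centrings tried. Over all genes tested, 0.749% were called higher and 1.86% lower. Col3a1, the type III collagen chain, lay at -1.96 to 0.35 after x-rays (median -0.93) and 1.12 to 2.93 at 25% (median 1.96), a difference of 2.87 ± 0.47 (SE, adjusted p = 0.022). It did not overlap between the groups and was well above background on 2 of the x-ray arrays. Pcolce, which helps to cut procollagen, and Htra1, a secreted protease, differed by 2.65 and 1.90 (adjusted p = 0.0337 and 0.0382), and Serpinh1, the collagen chaperone, and Loxl1, which cross-links elastin, by 1.39 and 1.25 (adjusted p = 0.0341 and 0.032). P3h4, needed for collagen modification, was not well above background on any x-ray array and was at least 1.55-fold higher (fitted adjusted p = 0.028). The proteoglycan Dcn had a difference of 3.07 (1.41 to 4.73) and an adjusted p of 0.0412, and was not called. Bgn, also not called, went the other way at -1.90 (-3.00 to -0.80, adjusted p = 0.0485). It was well above background on every array of both groups. Dcn and Bgn were named after their values were seen. Col6a2 fell by 3.29 on the log2 scale (adjusted p = 0.028) and was well above background on 1 of the 25% arrays. Its probe has 33 G and C bases and that of Col3a1 has 24.

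The averaged level of the 15 connective tissue genes was between 2.39 and 3.28 on the 25% arrays, 1.62 and 2.35 on the x-ray arrays, 0.45 and 1.84 in the controls, 1.77 and 4.14 at 5%, 1.92 and 3.35 at 15%, and 1.19 and 1.74 in the neutron alone mice. The ranges of the 25% and the x-ray arrays thus did not overlap. Lists for the vessel lining and heart muscle were also chosen after the values were seen. Of 9 genes of the vessel lining, Tie1, a receptor kinase of endothelial cells, was called higher, at -1.89 to 0.81 after x-rays and 1.06 to 2.45 at 25%, a difference of 2.41 ± 0.42 (SE, adjusted p = 0.0247) with 1 of the x-ray arrays well above background, while Kdr, the VEGF receptor, differed by -1.60 (adjusted p = 0.0433). Of 14 heart muscle genes 5 passed the filters and none was called, with Nppb and Myh7 well above background on 1 and 3 of the 25% arrays and at differences of -0.88 (adjusted p = 0.117) and -1.22 (adjusted p = 0.231). Myl2, named after its value was seen, went the other way at 1.36 (-0.52 to 3.24, adjusted p = 0.299). The median of the 5 was -0.45. Their averaged level ranged from -0.28 to 2.46 at 25% and from 0.61 to 1.62 after x-rays. Blood was drawn by cardiac puncture in both groups. The part of cells other than blood cells in these differences was not tested.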

How the data were processed

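Whole-blood RNA was hybridised to 1-colour Agilent arrays, 1 per mouse. The authors deposited scanner files with processed signal intensities, background-corrected by Feature Extraction 12.0.2 (per the submitters' processing notes) and not normalized between arrays, and a table of normalized log2 values, which was used as an alternative. The arrays' annotation gives mm9 positions. Exon and UTR positions of probes were not analysed here. Here, spots of a probe were averaged without non-uniform spots, log2 intensities were centred on the median of each array, and a probe was kept when over 75% of the 36 arrays had it positive and significant and 20% or more had it 1.5-fold or further from its median. The brightest probe stood for each gene. limma 3.58.1 (R 4.3.3) compared the 6 arrays at 25% with the 6 x-ray arrays, and genes were called when p was below 0.001 and, after Benjamini-Hochberg adjustment over 15085 genes, below 0.05. Other probes of a gene were adjusted over all 21484 probes past the background filter. For single values the exact permutation test, two-sided, was used. Precision is limited by the number of arrays, and p-values measure the spread between these arrays.

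The comparison, members, and gene lists were chosen with earlier results of these data known. Named genes were the 12 largest rises and the 12 largest falls among called genes well above background on all 12 arrays, the genes named by the study, and for each list its called members or the 2 with the smallest p. Where the text names others, it says that their values were known by then. Alternatives were other scalings, background corrections, filters and probe rules, the deposited table, the methods' t-test (a random variance t-test), a model over 36 arrays, replicate, slide and scan session blocks, array weights, and leaving out each array. Some, named in the closing section, were chosen after seeing the data. The fit was tested on simulated data, 50 genes for each fold over 15085 genes, and found 15, 25, 29, and 41 of 50 at log2 differences of 1, 1.5, 2, and 3, with 5 false calls. The simulated spread was drawn independently for each gene and array, without the array-wide shifts of the real arrays. The number of false calls among the real genes therefore cannot be read from it. RefSeq symbols matched 11308 genes directly, 559 through an accession, and 48 through a synonym. Figures were drawn with matplotlib 3.10.9. Some named genes are not reported here.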

Additional observations from a re-analysis of the deposited data

Results flagged for a closer look

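Of 230 groups of 6 arrays examined, 11 held an array that stood apart from the other 5 of its group. This is close to the number expected by chance, about 1 in 20 groups. X-ray replicate 5 was such an array for LOC105243282 (5.91, next 4.74), Slc11a2 (5.03, next 3.99), Eif2b4 (3.79, next 4.78), and Mrps24 (4.01, next 4.94). The array of 25% replicate 5 stood high for the mitotic genes Fzr1 (10.31, next 8.84), Ube2c (12.77, next 11.33), and Ccna2 (8.91, next 7.72). X-ray replicate 1 stood high for Chst3 (2.79, next 1.47) and Add3 (7.03, next 5.60), x-ray replicate 2 low for Cd28 (3.76, next 4.33), and 25% replicate 6 low for Gstt1 (8.54, next 9.38). Outside the comparison, the GTGTGTGT probes were on average at 6.37 on the 5% arrays, 7.12 on the 15% arrays, and 6.26 on the neutron alone arrays, above the highest control array at 5.35.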

How the results depend on the processing

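Of the named genes called, 688 of their values under the alternatives kept both direction and call and 286 lost the call, and none reversed. The 394 calls (113 higher, 281 lower) became 1156 (293 and 863) in a single model over 36 arrays, 604 (177 and 427) with slide and 5122 (2806 and 2316) with scan session as a random block, whose estimated correlations were negative (-0.05 and -0.17) and which the exposure cannot be told apart from, 1728 (501 and 1227) with array weights, and 781 (247 and 534) at the adjusted p alone. With normexp background correction and its offset of 50, above the median intensity of each of the 12 arrays, limma called 0 of 10622 genes, with 389 at p below 0.05. The methods' t-test on the values of the report called 395. Genes called higher were 56 with the 75th percentile, 64 when centred on probes well above background on all arrays, 67 with quantile normalization, and 56 in the deposited table, and 171 were lower among probes well above background on all 12 arrays. Without both replicates numbered 5, an alternative chosen after seeing the data, 593 were called (66 and 527). Leaving out 1 array gave 0 to 753 calls, 0 to 224 higher and 0 to 662 lower, and a difference of 914 to 1969.5 in probes well above background per array. The causes were not tested.

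With the replicate number as a block, 1314 genes were called, 223 higher and 1091 lower. Same-numbered arrays had residual correlations of 0.09, -0.47, 0.22, 0.59, 0.64, and 0.20, with 4 of 6 over 0.1. Their mean was 0.21, against -0.04 for the 30 other pairs. The numbers were not taken as pairs, since 2 of 6 correlated best with their own number.

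Some uncalled differences turned in sign. With the 75th percentile this held for Alas1 (-0.84), Rpl26 (0.19), and Myc (-0.080), when centred on probes well above background for Ddx21 (-0.011) and Myc (-0.054), and with quantile normalization for Alas1 (-0.80) and Myc (-0.035). In the deposited table Alas1 (-0.75) and Prdx6 (-0.61) turned, with normexp Rps25 (0.91), Eif2s3x (0.0044), Ccna2 (0.079), and Add3 (0.019), with a floor of 10 Add3 (0.045), and with array weights Chst3 (0.040) and Add3 (0.12). Rps25 turned without the fold filter (0.76) and Cd34 with the mean of its probes (-0.27). Among alternatives chosen after seeing the data, Crip2 (-0.093) and Myc (-0.055) turned within GC bins. Leaving out 1 array gave differences from -0.36 to 0.050 for Chst3, from -0.061 to 0.46 for Myc, and from -0.17 to 0.28 for Add3, with the sign turned without x-ray replicate 1 for Chst3, without x-ray replicate 2 or 5 for Myc, and without x-ray replicate 1 or 25% replicate 1, 3, or 5 for Add3.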
